A study of Mus musculus with 7 samples.

Results

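The phospholipase C (PLC) isoforms and inositol 1,4,5-trisphosphate (IP3) receptors were followed in T-cells of ORP4L knock-in (KI) mice and their wild-type (WT) littermates. The members were taken by gene symbol as 6 PLC isoforms (Plcb1, Plcb2, Plcb3, Plcb4, Plcg1 and Plcg2) and 3 IP3 receptors (Itpr1, Itpr2 and Itpr3), 9 genes of the 25033 listed in every library, and all 9 were found. RNA sequencing was performed on 7 libraries, 1 per mouse, of 4 ORP4L KI mice and 3 WT littermates, all labelled 15 months old. Both groups share the C57BL/6J background. In the ORP4L KI mice, human ORP4L tagged with Flag and followed by an EGFP reporter was placed behind a CAG promoter and a loxP-flanked stop in Rosa26, and Cre under the Lck promoter removed the stop, so that expression was directed to the T lineage. The ORP4L KI mice were moribund when sampled, so genotype and illness cannot be told apart. Mouse T-cells in the study came from blood or spleen, and which of these gave each library is not stated in the sources used here. The methods describe a kit selection of naive CD4+ T-cells and a culture with PHA and IL-2, and whether the sequenced cells passed through either step is not stated.

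PLC enzymes cut PI(4,5)P2, a phosphoinositide of the plasma membrane, into IP3 and diacylglycerol. The beta isoforms are switched on by G proteins, whereas the gamma isoforms are switched on by tyrosine kinases below the T-cell receptor, the B-cell receptor and Fc receptors. IP3 opens its receptors, calcium channels of the endoplasmic reticulum (ER), and the calcium so released activates calcineurin and the NFAT factors, while diacylglycerol acts on protein kinase C and RasGRP proteins. In T-cells PLC gamma 1 is known as the isoform below the T-cell receptor, and PLC gamma 2 is known for its role in B-cells and myeloid cells. The study concerns the supply of PI(4,5)P2 in ORP4L KI T-cells, and the comparison asks whether the transcripts of the enzymes that consume it, and of the channels that read out IP3, differed between the genotypes.

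The 9 transcripts encode enzymes and channels that resemble each other at the sites that do the work, and those stretches are shown because reads of near-identical genes cannot be told apart. For each PLC isoform, 36 coding bases around the catalytic histidine of the X domain are given 5′ to 3′ on the coding strand, with the histidine codon in capitals.
Plcb1: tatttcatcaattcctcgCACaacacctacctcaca
Plcb2: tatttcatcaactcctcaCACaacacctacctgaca
Plcb3: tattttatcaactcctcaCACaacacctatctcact
Plcb4: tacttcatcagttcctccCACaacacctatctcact
Plcg1: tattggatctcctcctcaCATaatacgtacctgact
Plcg2: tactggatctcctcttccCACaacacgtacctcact
Plcb1 and Plcb2 shared 33 of these 36 bases, Plcg1 and Plcg2 shared 30, and Plcb4 and Plcg1 shared 24, the fewest of any PLC pair. The stretches lie at chr2:135294959-135294994 on the plus strand in exon 10 of 32 (Plcb1), chr2:118719115-118719150 on the minus strand in exon 10 of 32 (Plcb2), chr19:6964374-6964409 on the minus strand in exon 10 of 31 (Plcb3) and chr2:135950322-135950357 on the plus strand in exon 13 of 37 (Plcb4), by the GENCODE M21 annotation of GRCm38. In both gamma genes the stretch crosses from exon 11 to exon 12, of 34 exons in Plcg1 (chr2:160752181-160752304, plus strand, intron included) and of 33 in Plcg2 (chr8:117579869-117581666, plus strand, intron included).

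For the IP3 receptors, 36 coding bases around the selectivity filter of the pore are given in the same way, with the codons of the filter in capitals.
Itpr1: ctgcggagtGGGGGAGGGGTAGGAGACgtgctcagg
Itpr2: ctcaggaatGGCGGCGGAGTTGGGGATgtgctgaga
Itpr3: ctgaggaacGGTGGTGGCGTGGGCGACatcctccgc
The receptors shared between 23 and 25 of these bases, fewer than the gamma or beta isoforms share within their own group. The stretches lie at chr6:108518779-108518814 on the plus strand in exon 58 of 62 (Itpr1), chr6:146158902-146158937 on the minus strand in exon 53 of 57 (Itpr2) and chr17:27118622-27118657 on the plus strand in exon 54 of 58 (Itpr3). The search for shared runs used 1 transcript per gene, the one with the longest reading frame. For Itpr2 this had 8331 bases, where the longest transcript used for its RPKM has 11823, so part of it was not searched. Over these transcripts no run of 50 bases was shared between any pair of the 9 genes. Reads of 50 bases or more that match them exactly can thus be assigned to 1 of the 9. Plcg1 shared 5.81% of its runs of 50 bases with the neighbouring Zhx3 and with Gm27206, Itpr1 shared 2.03% with Gm44040 and Gm44101, and Itpr3 shared 1.51% with its antisense gene Itpr3os. Plcb1 shared 1.96% with 11 other genes and Plcb4 0.619% with 99, and the remaining 4 members shared none within the transcripts searched. Whether the counting used strand is not stated in the sources used here.

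Total counts ranged from 12918187 to 15912921 in WT and from 16757959 to 19665679 in ORP4L KI libraries, and the 9 members together took between 0.0428% (ORP4L KI replicate 1) and 0.0998% (WT replicate 3) of them. Mouse Osbp2, the gene that encodes ORP4L, was counted 0, 0 and 1 times in the WT libraries against 188, 742, 155 and 443 times in replicates 1 to 4 of the knock-in, which matches the labels, although the inserted sequence is human and the counts are over mouse transcripts. T-cell markers (12 genes) summed to between 0.237% and 0.362% of counts in WT and were 0.12%, 0.427%, 0.3% and 0.296% in ORP4L KI replicates 1 to 4, and B-cell markers (10 genes) were detected in every library at between 0.0235% and 0.068%. ORP4L KI replicate 1 stood apart, since granulocyte markers (14 genes) held 12.2% of its counts, against 1.12% to 4.91% in the other ORP4L KI libraries and 0.186% to 0.53% in WT. Xist exceeded the Y-linked Ddx3y in 1 WT and 2 ORP4L KI libraries, so both groups held both sexes.

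No PLC isoform or IP3 receptor passed the test between ORP4L KI and WT T-cells. By edgeR's quasi-likelihood test with Benjamini-Hochberg adjustment over 13462 genes, 0 of the 9 members had an adjusted p under 0.05, where 3 genes of all tested (0.0223%) did. By the looser rule of an unadjusted p under 0.01 with a log2 fold change above 1 in size, 0 of 9 members were called, where 4.68% of all genes tested were. At an unadjusted p under 0.05, 1 member (Plcb1) was counted, where 13.7% of all genes were. DESeq2 also gave 0 members by adjusted p under 0.05, against 784 of all 13462 genes, and 1 by unadjusted p under 0.05, against 2108. On the TMM-scaled CPM the groups separated completely in no member, against 13.8% of all genes tested, and on the deposited RPKM, which scales by total counts, they did in 1 member (Plcb1), against 14.9% of all genes tested. All 9 estimates were below 0, from −1.10 to −0.0245 on the log2 scale, with a median of −0.277 for the members and 0.0135 for all genes tested. The direction of all 9 was the same under both other scalings, and scaling by total counts alone moved the median of all genes to −0.129 and that of the members to −0.386. The sizes of the differences were close to those of other genes, with a median of 0.277 in size for the members and 0.264 for all genes. Without ORP4L KI replicate 1 the estimates of 2 members, Plcg1 and Itpr2, were above 0 (0.01 and 0.12), and without WT replicate 3 those of 3 were, so the shared direction rests on single libraries.

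**Figure D1:**
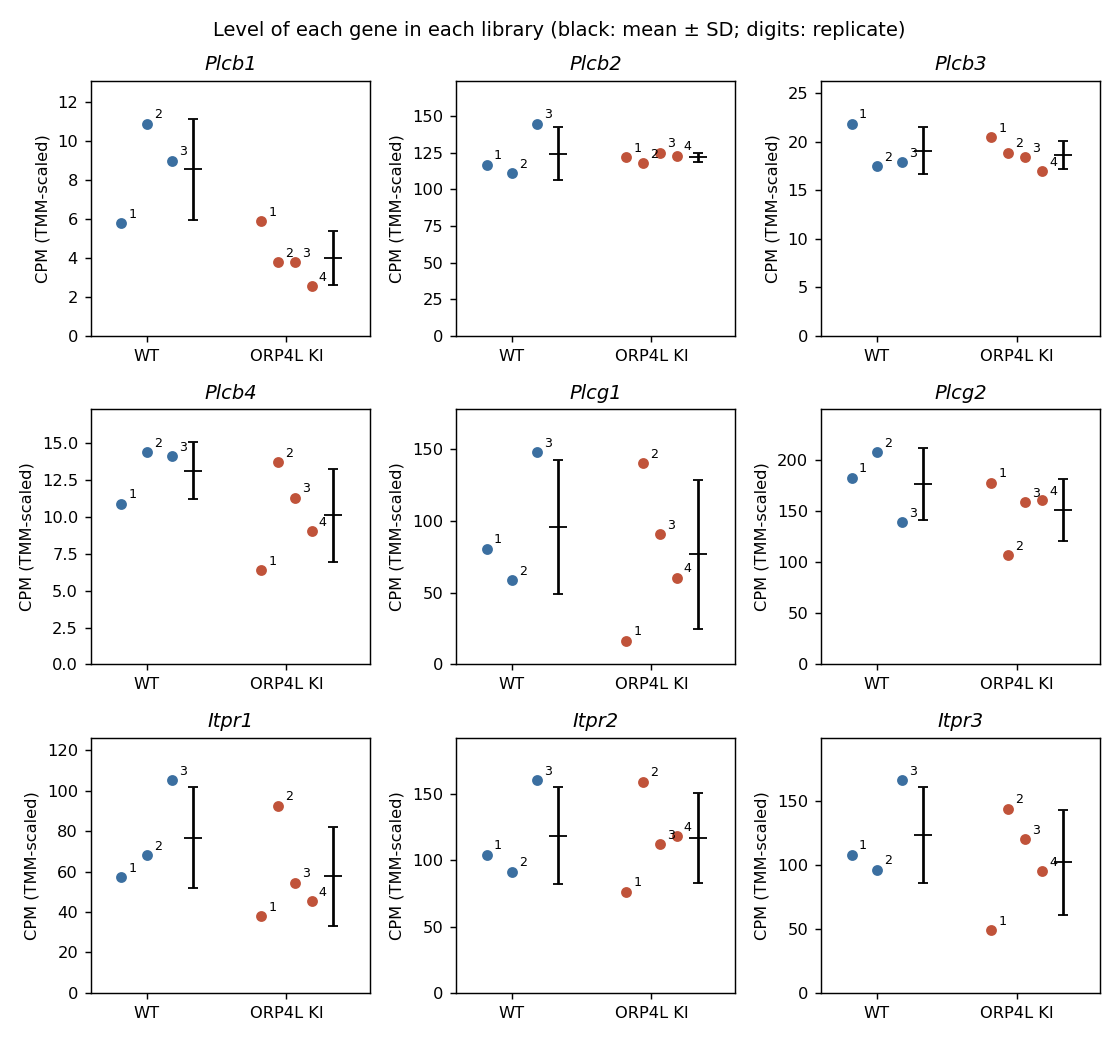
Each panel plots the CPM (reads per 1000000, scaled by TMM, which corrects for differences in library composition) of 1 gene in each library, with WT libraries in blue at left and ORP4L KI libraries in red at right, numbered by replicate, and black marks for the mean ± SD. Plcb1 lay lower in 3 of 4 ORP4L KI libraries than in any WT library, whereas Plcb2 and Plcb3 were nearly level and Plcg1 ran from 16.6 to 148 CPM.

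Plcb1 encodes PLC beta 1, an isoform driven by Gq proteins. It had the lowest level of the members, with 41 to 174 reads per library. Scaled by TMM, it gave 5.78, 10.9 and 8.99 CPM in WT and 5.90, 3.78, 3.79 and 2.55 CPM in ORP4L KI T-cells. ORP4L KI replicates 2 to 4 were below every WT library, while replicate 1 was just above the lowest WT library, so the groups overlapped at that single point. On the RPKM scale the same libraries gave 0.878, 1.53 and 1.39 in WT and 0.692, 0.578, 0.53 and 0.33 in ORP4L KI, where the groups did not overlap, so the overlap depends on the scaling. The TMM factor of ORP4L KI replicate 1 was 0.8358, the lowest of the 7 libraries. The mean was 8.57 ± 2.61 CPM (SD, n = 3) in WT and 4.01 ± 1.39 CPM (SD, n = 4) in ORP4L KI. The log2 fold change was −1.10 (standard error 0.35), 2.14-fold lower, with a 95% interval from −1.87 to −0.32. By edgeR the unadjusted p was 0.0109 and the adjusted p was 0.182, at rank 803 of all genes by p, and the exact two-sided permutation test of its log2 CPM gave p = 0.0857, where 0.0286 is the smallest p that 4 against 3 libraries allow. With total counts alone the log2 fold change of Plcb1 was −1.25 (adjusted p = 0.105 by edgeR), which passes the looser rule, as 682 of all genes did. Without ORP4L KI replicate 1 it was −1.34 (adjusted p = 0.0957 by edgeR), which passes that rule too, as 567 of all genes did. Over all alternatives tried the adjusted p of Plcb1 ran from 0.061 to 0.655. Without WT replicate 2 the log2 fold change of Plcb1 was −0.88 (adjusted p = 0.56 by edgeR) and no member had an unadjusted p under 0.05, so that count rests on this library. Of all genes, 1260 had one without it, against 1845 with all 7 libraries.

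Plcb2 encodes PLC beta 2, the beta isoform known from blood cells, which responds to G beta-gamma subunits. It was measured at 117, 111 and 145 CPM in WT and at 122, 118, 125 and 123 CPM in ORP4L KI T-cells. All ORP4L KI values fell within the WT range, and they were the tightest of any member relative to their mean, with a mean of 122 ± 3.16 CPM (SD, n = 4) against 124 ± 18.4 CPM (SD, n = 3) in WT. The log2 fold change was −0.03 (95% interval −0.42 to 0.37, adjusted p = 0.967 by edgeR).

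Plcb3 encodes PLC beta 3, which is activated by both Gq and G beta-gamma subunits. Its levels were 21.9, 17.5 and 17.9 CPM in WT and 20.5, 18.9, 18.4 and 17.0 CPM in ORP4L KI T-cells. The groups overlapped almost completely, with a log2 fold change of −0.03 (95% interval −0.46 to 0.39, adjusted p = 0.966 by edgeR). Of the members, Plcb2 and Plcb3 had the narrowest intervals, and all values within them are smaller than a change of 1.5-fold in either direction.

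Plcb4, another Gq-driven isoform, was measured at 10.9, 14.4 and 14.1 CPM in WT and 6.39, 13.7, 11.3 and 9.02 CPM in ORP4L KI T-cells. ORP4L KI replicates 1 and 4 were below every WT library and replicates 2 and 3 were inside the WT range. The log2 fold change was −0.38 (95% interval −1.02 to 0.26, adjusted p = 0.646 by edgeR), and it was −0.22 without ORP4L KI replicate 1 and −0.58 without replicate 2.

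Plcg1 encodes PLC gamma 1. It gave 80.5, 58.5 and 148 CPM in WT and 16.6, 140, 90.7 and 60.4 CPM in ORP4L KI T-cells, an 8.95-fold range that was the widest of the 9 members. ORP4L KI replicate 1 was lowest, WT replicate 3 and ORP4L KI replicate 2 were highest, and the groups overlapped throughout. The mean was 95.8 ± 46.8 CPM (SD, n = 3) in WT and 77.0 ± 52.0 CPM (SD, n = 4) in ORP4L KI. The log2 fold change was −0.31 (95% interval −1.63 to 1.00, adjusted p = 0.884 by edgeR), so a level lower by as much as 3-fold lies within the interval at this spread. It was 0.15 without WT replicate 3 and 0.01 without ORP4L KI replicate 1.

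Plcg2 encodes PLC gamma 2. Its levels were 183, 208 and 139 CPM in WT and 178, 107, 159 and 161 CPM in ORP4L KI T-cells. ORP4L KI replicate 2, which was among the highest for Plcg1, was the lowest here, and the other ORP4L KI libraries lay within the WT range. ORP4L KI over WT was −0.22 on the log2 scale (95% interval −0.75 to 0.30, adjusted p = 0.77 by edgeR), and ran from −0.37 (without WT replicate 3) to −0.0901 (without WT replicate 2).

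The IP3 receptors differ in how they respond to IP3 and calcium, and Itpr1 is known as the main receptor of neurons. Itpr1 gave 57.3, 68.0 and 105 CPM in WT and 37.9, 92.6, 54.4 and 45.3 CPM in ORP4L KI T-cells. Replicates 1, 3 and 4 of the ORP4L KI group were below every WT library, and replicate 2 was inside the WT range. The difference was −0.42 on the log2 scale (95% interval −1.16 to 0.33, adjusted p = 0.674 by edgeR). Without ORP4L KI replicate 2 it was −0.77 (adjusted p = 0.195 by edgeR, and up to 0.984 over the alternatives), and it was −0.12 without WT replicate 3 and −0.27 without ORP4L KI replicate 1.

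Itpr2 encodes the receptor subtype known for its high affinity for IP3. It was measured at 104, 91.2 and 160 CPM in WT and at 76.3, 159, 112 and 118 CPM in ORP4L KI T-cells. Only ORP4L KI replicate 1 fell outside the WT range, below it, and the log2 fold change was −0.02 (95% interval −0.67 to 0.62, adjusted p = 0.983 by edgeR). Itpr3, the subtype known for the lowest affinity for IP3, gave 108, 96.3 and 166 CPM in WT and 48.8, 144, 120 and 94.9 CPM in ORP4L KI T-cells. ORP4L KI replicate 1 was again lowest, and replicate 4 was just below the lowest WT library. The log2 fold change of Itpr3 was −0.28 (95% interval −1.07 to 0.51, adjusted p = 0.821 by edgeR), with −0.0545 without ORP4L KI replicate 1, −0.51 without ORP4L KI replicate 2 and −0.000966 without WT replicate 3.

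**Figure D2:**
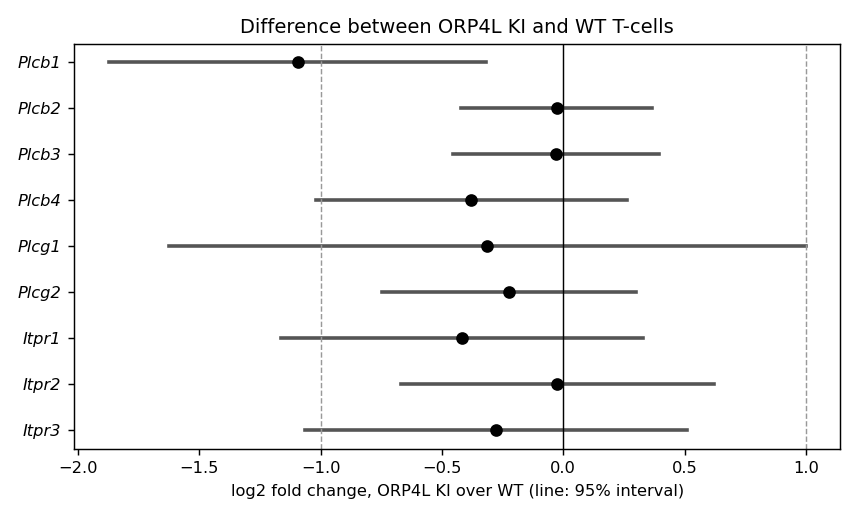
Points give the log2 fold change of ORP4L KI over WT for each gene, horizontal lines its 95% interval, and dashed lines a change of 2-fold. Only the interval of Plcb1 lies wholly below 0, and that of Plcg1 is the widest.

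Compared with each other on the deposited RPKM scale, which divides by transcript length, the members spanned from Plcg2 to Plcb1. Over all 7 libraries the mean was 37.4 RPKM for Plcg2, 24.4 for Plcb2, 20.0 for Plcg1, 12.7 for Itpr3, 10.1 for Itpr2, 6.85 for Itpr1, 4.45 for Plcb3, 2.14 for Plcb4 and 0.848 for Plcb1. Neighbours in this order were compared by an exact two-sided sign permutation test on log2(RPKM + 0.1) within libraries, adjusted over the 8 neighbour pairs. Plcg2 exceeded Plcb2 in 7 of 7 libraries (1.52-fold, adjusted p = 0.0312), Itpr2 exceeded Itpr1 in 7 of 7 (1.52-fold, adjusted p = 0.0312), Plcb3 exceeded Plcb4 in 7 of 7 (2.12-fold, adjusted p = 0.0312) and Plcb4 exceeded Plcb1 in 7 of 7 (2.48-fold, adjusted p = 0.0312). The unadjusted p behind each was 0.0156, the smallest this test can give. It measures the spread between libraries only. RPKM divides by the longest transcript, and a length unlike that of the transcripts present would shift a gene alike in all 7 libraries. The order that set the pairs was taken from the same libraries. The other 4 neighbour pairs did not differ beyond their spread: Plcb2 exceeded Plcg1 in 5 of 7 libraries (exact permutation, adjusted p = 0.141), and Plcg1 over Itpr3, Itpr3 over Itpr2 and Itpr1 over Plcb3 each held in 6 of 7 (exact permutation, adjusted p = 0.0714). Without ORP4L KI replicate 1, 7 of the 8 pairs passed adjustment, and without any other single library 0 did. In each of these cases the smallest unadjusted p that 6 libraries allow in this permutation test is 0.0312. That p passes adjustment only if most of the 8 pairs reach it, so the 0 cannot show that the order changed. The pairs that held in 7 of 7 libraries hold whichever library is left out.

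Within the PLC isoforms the makeup differed between libraries of the same genotype, while the group means were close for Plcg2 (43.5% and 42.5% of the summed PLC RPKM in WT and ORP4L KI) and Plcg1 (22.3% and 20.3%). Plcg2 gave 46.3%, 52.7% and 31.4% in WT and 54.3%, 28.5%, 41.4% and 46.0% in ORP4L KI T-cells. Plcg1 gave 19.8%, 14.4% and 32.7% in WT and 4.92%, 36.3%, 23.0% and 16.7% in ORP4L KI. Plcb2 was steadier, between 23.9% and 31.8%, and Plcb1, Plcb3 and Plcb4 took at most 1.68%, 6.34% and 2.89%. Plcg1 exceeded Plcg2 in WT replicate 3 (a ratio of 1.04 in RPKM) and ORP4L KI replicate 2 (1.27), and was 0.0907 of Plcg2 in ORP4L KI replicate 1. Among the IP3 receptors the makeup was more even, with Itpr3 between 34.5% and 47.0%, Itpr2 between 30.5% and 41.1% and Itpr1 between 18.3% and 27.2% of their summed RPKM. That sum itself ran from 13.1 RPKM in ORP4L KI replicate 1 to 47.0 in WT replicate 3, and the PLC sum from 63.2 to 113 RPKM in the same libraries.

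**Figure D3:**
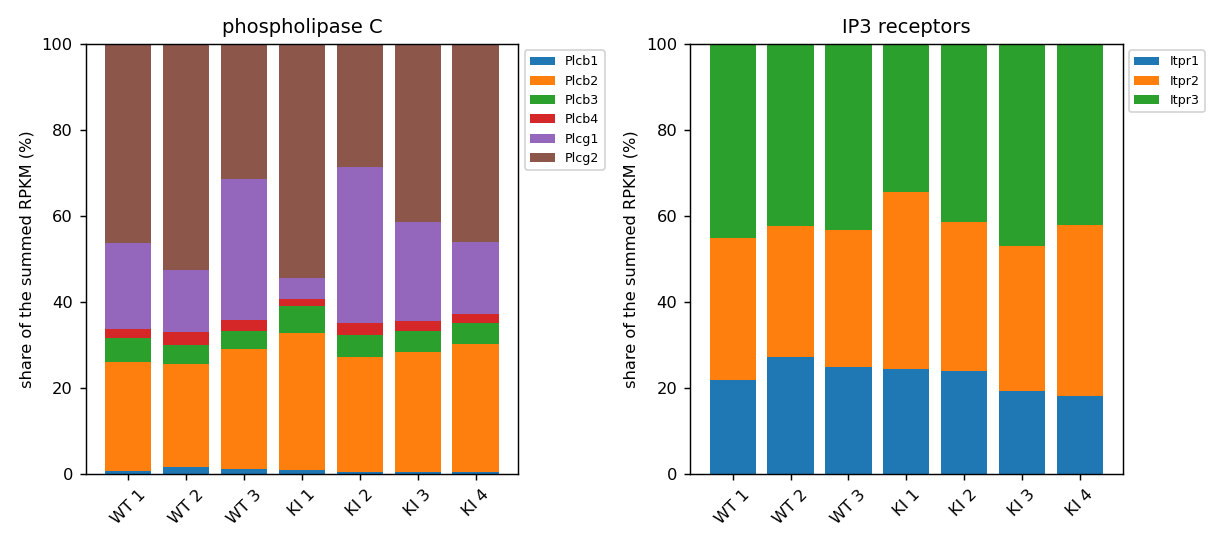
Stacked bars give each gene's share, in percent of the summed RPKM, of the 6 PLC isoforms (left) and the 3 IP3 receptors (right) in each library. Plcg1 takes 4.92% of the PLC sum in ORP4L KI replicate 1 and 36.3% in replicate 2, whereas the receptor shares differ less.

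Of the members, Plcg1, Itpr2 and Itpr3 had the highest r with the share of T-cell marker counts across libraries. They also had the most negative r with that of monocyte and macrophage markers, although no relation with a marker share passed adjustment. The share of T-cell markers was 0.339%, 0.237% and 0.362% in WT and 0.12%, 0.427%, 0.3% and 0.296% in ORP4L KI libraries, and Plcg1 was highest in the libraries where this share was highest. Across the 7 libraries the log2 CPM of Plcg1 and the log2 of the T-cell marker share had a Pearson r of 0.965 (exact permutation p = 0.00238, adjusted p = 0.0514) and a Spearman rho of 0.929 (exact permutation p = 0.00675, adjusted p = 0.137). Itpr3 gave r = 0.939 (exact permutation p = 0.00575, adjusted p = 0.0583) and rho = 0.893 (exact permutation p = 0.0123, adjusted p = 0.166). Itpr2 gave r = 0.863 (exact permutation p = 0.00278, adjusted p = 0.0514) and rho = 0.821 (exact permutation p = 0.0341, adjusted p = 0.23). Without the 2 libraries farthest from the median marker share (ORP4L KI replicates 1 and 2), r was 0.785 for Plcg1, 0.71 for Itpr3 and 0.763 for Itpr2 over 5 libraries. Plcb4 and Itpr1 had r of 0.763 and 0.725 with the T-cell share (exact permutation, adjusted p = 0.212 and 0.188), and −0.154 and 0.342 over those 5. With the NK cell share r was 0.77 for Plcb4, 0.763 for Plcg1, 0.75 for Itpr1, 0.719 for Itpr3 and 0.612 for Itpr2 (exact permutation, adjusted p from 0.187 to 0.431). The other members ran from −0.496 (Plcg2) to 0.131 (Plcb3). With the monocyte and macrophage marker share, Plcg1 gave r = −0.889 (exact permutation p = 0.00575, adjusted p = 0.0583) and rho = −0.964 (exact permutation p = 0.00278, adjusted p = 0.113). Itpr2 gave r = −0.932 (exact permutation p = 0.00536, adjusted p = 0.0583) and rho = −0.857 (exact permutation p = 0.0238, adjusted p = 0.214). Itpr3 gave r = −0.859 (exact permutation p = 0.0123, adjusted p = 0.083) and rho = −0.929 (exact permutation p = 0.00675, adjusted p = 0.137). Plcg2 had the opposite sign, with r = 0.846 (exact permutation p = 0.0165, adjusted p = 0.0953) and rho = 0.821 (exact permutation p = 0.0341, adjusted p = 0.23). Without the same 2 libraries these r were −0.769, −0.823, −0.708 and 0.919. The relations were among 81 examined (each member with 5 marker shares whose groups overlapped, and every pair of members), of which 1 had an adjusted p under 0.05 by Pearson and 0 by both measures. Shares whose groups did not overlap were left out, the granulocyte share among them, and its relations were not tested. Its r was −0.861 with Plcb4, −0.838 with Itpr1, −0.743 with Itpr3, −0.716 with Plcg1 and −0.622 with Plcb1. With Itpr2, Plcb2, Plcb3 and Plcg2 it was −0.517, −0.208, 0.0914 and 0.094. In each relation both quantities share the library's total count. In bulk RNA, fewer cells of a type and less RNA per cell cannot be told apart.

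Plcg1 and Itpr3 followed each other most closely of the member pairs, with r = 0.995 (exact permutation p = 0.000397, adjusted p = 0.0321) and rho = 0.964 (exact permutation p = 0.00278, adjusted p = 0.113), and r = 0.993 without WT replicate 3 and ORP4L KI replicate 1. Plcb4 and Itpr1 gave r = 0.883 (exact permutation p = 0.00655, adjusted p = 0.0589), rho = 0.857 (exact permutation p = 0.0238, adjusted p = 0.214) and r = 0.984 without WT replicate 3 and ORP4L KI replicate 2. Plcg2 and the B-cell marker share gave r = 0.75 (exact permutation p = 0.05, adjusted p = 0.188) and rho = 0.643 (exact permutation p = 0.139, adjusted p = 0.469), and r was 0.408 without ORP4L KI replicates 2 and 4, so the relation rests on those libraries. Plcb1 and Plcb3, in contrast, had r of −0.206 and −0.218 with the T-cell marker share (exact permutation p = 0.685 and 0.642).

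**Figure D4:**
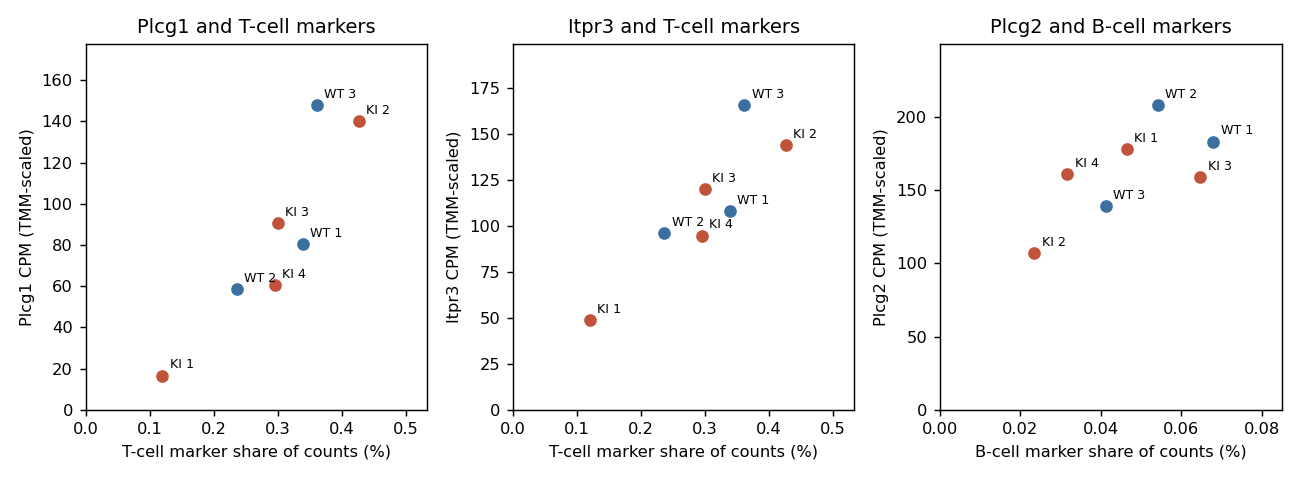
Each point is 1 library (WT in blue, ORP4L KI in red), with the summed share of T-cell or B-cell marker counts in percent on the x axis and the CPM of Plcg1, Itpr3 or Plcg2 on the y axis. Plcg1 and Itpr3 are lowest in ORP4L KI replicate 1, where T-cell markers hold 0.12% of counts, and highest in WT replicate 3 and ORP4L KI replicate 2.

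Set against the marker counts of the same library, the spread of some members narrowed and that of others widened. Per 100 T-cell marker counts, Itpr3 had 3.43, 4.05 and 5.07 counts in WT and 3.39, 3.67, 3.97 and 2.95 in ORP4L KI, a 1.72-fold range where its CPM had a 3.41-fold range. Itpr2 ranged 1.6-fold on that scale, from 3.31 to 5.31. Plcg1 had a 3.92-fold range against 8.95-fold in CPM, with 2.46 to 4.52 counts in WT and 3.58, 3.01 and 1.88 in ORP4L KI replicates 2 to 4, and replicate 1 lowest of all, so its low level in ORP4L KI replicate 1 was also low per T-cell marker count. Plcg2 had 29.1, 38.4 and 37.1 counts per 100 B-cell marker counts in WT and 31.9, 49.7, 24.4 and 46.9 in ORP4L KI, a 2.04-fold range against 1.94-fold in CPM. Per T-cell marker count the range widened to 5.81-fold for Plcb1, 2.84-fold for Plcb2, 2.95-fold for Plcb3 and 4.52-fold for Plcg2, and per B-cell marker count it widened to 21.9-fold for Plcg1 and 7.61-fold for Itpr3. Plcb1 per T-cell marker count was 1.02 lower on the log2 scale in ORP4L KI (exact permutation p = 0.2). These ratios were added after the data were seen. None of the 9 ratios to T-cell or to B-cell markers separated the genotypes.

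Markers of some other cell types differed between the groups by the looser rule, which called 4.68% of all genes tested, and are given beside the members. By an adjusted p under 0.05, 1 dendritic cell marker was called and 0 markers of each other list. All 14 granulocyte markers were higher in ORP4L KI by the looser rule, with a median log2 fold change of 4.35. Dendritic cell markers (8 genes) held 0.055% to 0.0769% of counts in WT and 0.0127% to 0.0268% in ORP4L KI libraries, and 7 of 8 were lower by the looser rule. Of 9 NK cell markers 5 were lower, with 0.0673% to 0.0862% of counts in WT and 0.0378% to 0.115% in ORP4L KI. Of 12 monocyte and macrophage markers 1 was higher and 2 were lower, at 0.0877% to 0.128% in WT and 0.0738% to 0.141% in ORP4L KI. Erythroid markers (9 genes) ran from 1.08% to 1.85% in WT and from 0.118% to 0.853% in ORP4L KI, with 0 called. Megakaryocyte and platelet markers (8 genes, 0 called) held 0.0208% to 0.0266% in WT and 0.0121% to 0.0382% in ORP4L KI, and endothelial markers (7 genes, 1 lower) 0.0155% to 0.0183% and 0.00694% to 0.0128%. No marker was at 0 in all libraries. The part of these cell types in the levels of Plcb1 or of any other member was not tested.

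For each member, the gene whose log2 CPM followed it most closely over the 7 libraries, among 9353 genes with a mean log2 CPM of at least 3, was Zbtb18 for Plcb1 (r = 0.994), Exoc1 for Plcb2 (0.943), Mitd1 for Plcb3 (0.94), Vps8 for Plcb4 (0.978), Cdon for Plcg1 (0.997), Pak1 for Plcg2 (0.984), Zmiz1 for Itpr1 (0.994), Prdm2 for Itpr2 (0.995) and Morc2a for Itpr3 (0.996). They were picked as the highest of all these genes, and describe the 7 libraries only. Plcg1 was the third closest gene to Itpr3.

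The genes around these enzymes and channels were taken from 9 lists of 120 genes, of which 114 were tested, while Plcd4, Plcz1, Plch1, Plch2, Itpka and Ryr2 were below the filter on low counts. Of the 114, 0 had an adjusted p under 0.05 by edgeR, 10 had an unadjusted p under 0.05 (8.77%, against 13.7% of all genes), and 1 passed the looser rule (0.877%, against 4.68%). DESeq2 gave an adjusted p under 0.05 to 2 of the 114, Atp2a1 and Calm2, and to 784 of all 13462 genes. The groups did not overlap in 10 (8.77%, against 13.8% of all genes). The median log2 fold change was 0.06, with 66 genes above 0 and 48 below.

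The gene that passed was Atp2a1, which encodes SERCA1, a pump that refills the ER calcium store and is known mainly from skeletal muscle. It was measured at 4.47, 5.60 and 1.83 CPM in WT and 1.10, 1.48, 0.862 and 0.746 CPM in ORP4L KI T-cells. The highest ORP4L KI library was below the lowest WT library, and Atp2a1 fell 3.77-fold by the looser rule (−1.91 ± 0.45 SE on the log2 scale, adjusted p = 0.0965 by edgeR, exact permutation p = 0.0286). DESeq2 gave an adjusted p of 0.00425, and the adjusted p ran up to 0.393 over the alternatives. Without WT replicate 2 it no longer passed that rule. In the same list of 17 tested genes of the ER store and store-operated entry, 3 had an unadjusted p under 0.05 (17.6%, against 13.7% of all genes) and 4 had groups that did not overlap (23.5%, against 13.8%). Mcu, the pore of the mitochondrial calcium uniporter, gave 24.0, 21.3 and 27.4 CPM in WT and 75.7, 34.7, 32.6 and 44.9 CPM in ORP4L KI (log2 fold change 0.95, adjusted p = 0.19 by edgeR, and 0.62 without ORP4L KI replicate 1). Stim2, a sensor of ER calcium, gave 58.6, 69.7 and 76.3 CPM in WT and 83.1, 98.4, 89.7 and 103 CPM in ORP4L KI (log2 fold change 0.46, adjusted p = 0.304 by edgeR). In Mcu and Stim2 the lowest ORP4L KI library was above the highest WT library, and neither was called.

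Upstream of the beta isoforms, all 13 G protein and RGS genes had estimates above 0 (median 0.21), of which 9 were above 0 when libraries were scaled by total counts alone or WT replicate 3 was left out. By edgeR 0 of them were called by either rule and 3 had an unadjusted p under 0.05 (23.1%, against 13.7% of all genes). Rgs18, which encodes a regulator that shortens Gq and Gi signals, gave 21.9, 20.1 and 21.1 CPM in WT and 54.5, 24.5, 33.4 and 33.7 CPM in ORP4L KI, without overlap (log2 fold change 0.80, adjusted p = 0.218 by edgeR). Rgs16, of the same family, gave 70.6, 46.5 and 65.4 CPM in WT and 46.6, 207, 114 and 172 CPM in ORP4L KI, where replicate 1 was inside the WT range (2.22-fold higher on average, adjusted p = 0.285 by edgeR). Gna14, a G protein of the Gq family, was at most 1.93 CPM in WT and 7.56 CPM in ORP4L KI (log2 fold change 1.56, adjusted p = 0.319 by edgeR, and 0.91 without ORP4L KI replicate 2).

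Upstream of PLC gamma 1, 0 of the 20 genes between the T-cell receptor and the enzyme had an unadjusted p under 0.05 by edgeR, 0 were called by DESeq2's adjusted p, and the median log2 fold change was 0.01. The smallest p in that list belonged to Csk, the kinase that restrains Lck, with a log2 fold change of −0.34 (adjusted p = 0.54 by edgeR). The costimulatory receptor gene Cd28 ran from 130 to 447 CPM in WT and from 205 to 759 CPM in ORP4L KI, and was highest in ORP4L KI replicate 2 and WT replicate 3, the same libraries as Plcg1. Its log2 fold change was 0.73 (adjusted p = 0.632 by edgeR), with 0.22 without ORP4L KI replicate 2 and 1.49 without WT replicate 3, and that of the adaptor gene Nck1 was 0.28 (adjusted p = 0.693). Before PLC gamma 2, 0 of 7 genes had an unadjusted p under 0.05 by edgeR. The estimates were −0.46 for Syk, the kinase below B-cell and Fc receptors, −0.53 for the adaptor Blnk and −0.25 for Dapp1 (adjusted p from 0.525 to 0.63 by edgeR). Without WT replicate 2 those of Syk and Dapp1 were −0.23 and −0.155, and without WT replicate 1 that of Blnk was −0.26.

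Of the other PLC isozymes 5 of 9 were tested and 0 were called by either rule. Plce1, whose product is regulated by Ras family proteins, gave 0.994, 2.01 and 1.83 CPM in WT and 0.609, 0.548, 0.976 and 1.12 CPM in ORP4L KI (log2 fold change −0.98, adjusted p = 0.363 by edgeR). Plcl2, a PLC-like protein without catalytic activity, gave 116, 119 and 114 CPM in WT and 163, 129, 132 and 154 CPM in ORP4L KI without overlap (log2 fold change 0.31, adjusted p = 0.494 by edgeR). Plcd1 had an estimate of 0.87 (adjusted p = 0.376 by edgeR).

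Downstream, calcineurin and NFAT genes (15 tested) had a median log2 fold change of −0.04 and 0 calls. Calm2, 1 of the genes that encode calmodulin, gave 270, 317 and 273 CPM in WT and 458, 400, 375 and 405 CPM in ORP4L KI without overlap (log2 fold change 0.51, adjusted p = 0.254 by edgeR and 0.046 by DESeq2, and up to 0.866 over the alternatives). Ppp3ca, the catalytic subunit of calcineurin, had 0.78 and Rcan1, its inhibitor and a target of NFAT, −0.43 (adjusted p = 0.442 and 0.534 by edgeR). Without ORP4L KI replicate 1 Ppp3ca was at 0.27, and without WT replicate 1 Rcan1 was at −0.22. Of the 18 genes of the diacylglycerol arm 0 were called and the median was −0.10, with Dgkg, a diacylglycerol kinase, at 0.89 (adjusted p = 0.304 by edgeR), Bcl10, the signalling adaptor below protein kinase C, at 0.55 (adjusted p = 0.389) and Rasgrp3 at −0.61 (adjusted p = 0.494). Among 8 tested genes of IP3 removal and inositol recycling 0 had an unadjusted p under 0.05 by edgeR, and Isyna1, which makes inositol phosphate from glucose 6-phosphate, came nearest at −0.46 (adjusted p = 0.368), followed by the phosphatases Inpp5a at 0.47 and Impa2 at 0.49. Without ORP4L KI replicate 1 these 2 were at 0.31 and 0.137 and Bcl10 was at 0.34, and without ORP4L KI replicate 3 Rasgrp3 was at −0.98.

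The IP3 receptor partners (11 tested, 0 called) had a median log2 fold change of −0.15. Itpripl2, a relative of the receptor-interacting protein Itprip, gave 11.0, 15.4 and 16.3 CPM in WT and 59.0, 21.6, 20.4 and 20.7 CPM in ORP4L KI without overlap (log2 fold change 1.10, adjusted p = 0.274 by edgeR). ORP4L KI replicate 1 was far above the other libraries of its group, and without it the log2 fold change was 0.55. Ahcyl2, of the IRBIT family that binds the IP3 site, had −0.41, and Erlin1, part of the complex that marks activated receptors for degradation, had −0.37 (adjusted p = 0.493 and 0.644 by edgeR). Erlin1 was at −0.168 without WT replicate 2 and at −0.635 without ORP4L KI replicate 1.

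**Figure D5:**
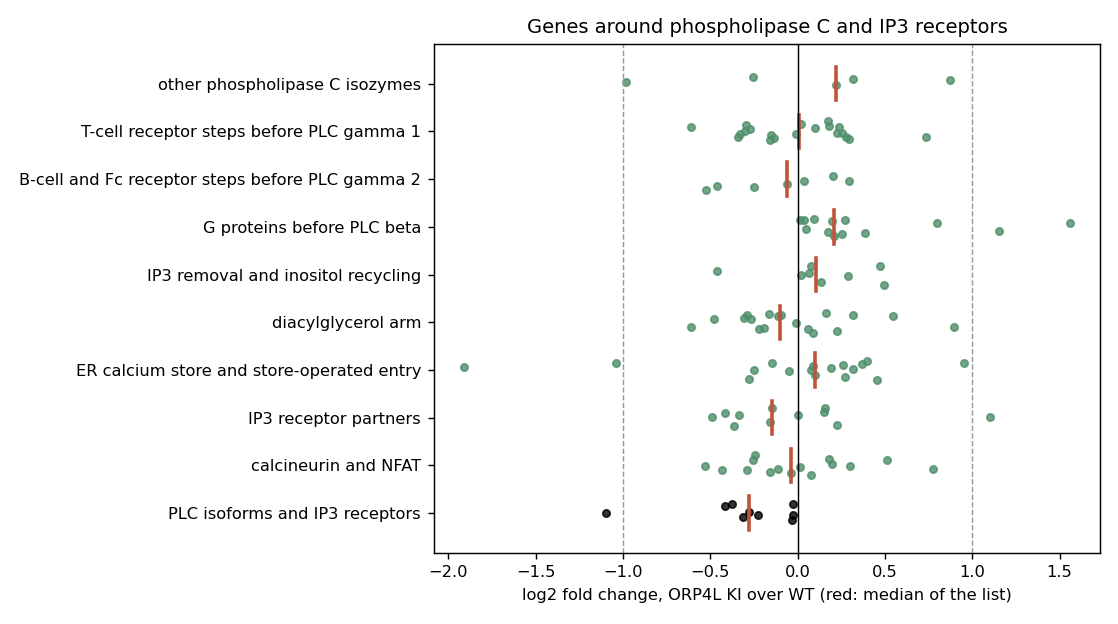
Each point is the log2 fold change of ORP4L KI over WT of 1 tested gene, grouped by list, with the members in black at the bottom, the median of each list as a red bar and dashed lines at a change of 2-fold. All points of the members lie below 0 and all 13 points of the G protein list above it (9 when scaled by total counts alone), and Atp2a1 is the point farthest to the left.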

How the data were processed

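T-cell RNA of 4 ORP4L KI and 3 WT mice was sequenced (NovaSeq) after mRNA library construction. The authors trimmed the reads, mapped them to mouse mRNA reference sequences with FANSe3, merged splice variants, and deposited the read count per gene without normalization. They also deposited RPKM per gene, which divides by the longest transcript. The submitters' processing notes name mm10. Aligner version, strand and the treatment of reads that match several genes are not given in the sources used here. Groups and replicate numbers came from the labels.

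Counts were tested in edgeR 4.0.16 under R 4.3.3 (filterByExpr with a minimum count of 10, TMM, quasi-likelihood test, Benjamini-Hochberg over 13462 genes). The standard error was the size of the log2 fold change over the square root of F. CPM are scaled by TMM. The test was checked on simulated counts. Alternatives were DESeq2 1.42.0, its size factors, total counts, 2 other filters, the replicate number as a block, and each library left out. Values of r and exact permutation tests used log2(CPM + 0.5). No libraries agreed within sampling noise, so each counted once. P-values between the groups rest on the spread between libraries, 1 per mouse, which edgeR moderates across genes. That spread also holds differences in cell content between libraries. The standard errors and intervals of the log2 fold changes rest on the same spread between libraries, so they cover more than counting error. Total counts of the libraries ran from 12918187 to 19665679.

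All 9 members are named. From the pathway lists, called genes and up to 3 per list with the smallest p are named, and for each member the gene with the highest r. Members and lists were chosen with earlier results of these data known. Coding sequences were read from GENCODE M21 transcripts (GRCm38), with the positions found by translated motif.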

Additional observations from a re-analysis of the deposited data

Results flagged for a closer look

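In 36 sets of 4 ORP4L KI libraries (9 members and 27 named pathway genes), the highest or lowest library was set against the others by Dixon's ratio. For normally distributed values chance exceeds its limit at a rate of 0.05, or 1.8 of these sets. All sets share the same 4 libraries, and the pathway genes were picked by p in these data, so 1.8 is only a rough guide. The limit was exceeded in 3 sets, and in none of the 9 members. Itpripl2 was at 59.0 CPM in ORP4L KI replicate 1, against 20.4 to 21.6 CPM in the other ORP4L KI libraries. Erlin1 was at 49.7 CPM in the same library, against 25.6 to 28.5 CPM, and this is the library with 12.2% granulocyte marker counts. Dapp1 was at 80.9 CPM in ORP4L KI replicate 4, against 63.3 to 66.0 CPM. The part of granulocyte transcripts in these values was not tested.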

How the results depend on the processing

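Of the refits of the 9 members, 109 kept the direction and the side of the adjusted threshold and 8 turned direction. No member had an adjusted p under 0.05 under any of them. By the looser rule 1 member (Plcb1) was called with total counts, without a filter, with at least 10 counts in every library and by DESeq2, and 0 to 1 with 1 library left out (1 without WT replicate 1 or ORP4L KI replicate 1). The rule called 682, 771, 478 and 855 of all genes under those settings with all libraries, in that order. It called 438 without WT replicate 1 and 567 without ORP4L KI replicate 1, against 630 in the main fit. Members with an unadjusted p under 0.05 numbered 0 to 2 with 1 library left out, 0 without WT replicate 2 and 2 (Plcb1 and Itpr1) without ORP4L KI replicate 2. Of all genes, 1260 and 2194 had one in these 2 refits, against 1845 in the main fit.

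Genes with an adjusted p under 0.05 numbered 113 with total counts, 176 without a filter, 0 with at least 10 counts in every library (1549 at an unadjusted p under 0.05), 784 by DESeq2 and 0 to 342 with 1 library left out (342 without ORP4L KI replicate 2). By the looser rule 328 (without WT replicate 2) to 805 were called with 1 library left out. DESeq2 called 2 pathway genes by adjusted p and 2 by the looser rule, where it called 784 and 855 of all genes. By that rule, leaving out 1 library gave from 0 (WT replicate 2, 328 of all genes) to 4 (ORP4L KI replicate 2, 805). Without ORP4L KI replicate 1 or 3 it gave 2 (567 and 666 of all genes). Of the 8 neighbour pairs by level, 0 to 7 passed adjustment with 1 library left out, 7 without ORP4L KI replicate 1 and 0 otherwise. With 1 library fewer, pairs pass only if most of them reach the smallest p of the permutation test. The 0 therefore cannot show that the order changed.

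With 1 library left out, Plcb2 ran from −0.104 to 0.101 (above 0 without WT replicate 3), Plcb3 from −0.0892 to 0.0771 (above 0 without WT replicate 1 or ORP4L KI replicate 4), Plcg1 from −0.803 to 0.149 (above 0 without WT replicate 3 or ORP4L KI replicate 1) and Itpr2 from −0.234 to 0.257 (above 0 without the same libraries). Relative to T-cell marker counts, added after the data were seen, Plcb2 was at 0.0768, Plcb3 at 0.068 and Itpr2 at 0.0653, and relative to B-cell marker counts Plcb2 was at 0.30, Plcb3 at 0.29, Plcg2 at 0.0846 and Itpr2 at 0.28. The cause of these changes was not tested.

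The fit with the replicate number as a block also left out ORP4L KI replicate 4, which has no WT partner. It gave 48 genes with an adjusted p under 0.05, 0 members with an unadjusted p under 0.05 (Plcb1 at −0.926, adjusted p 0.655) where 1124 of all genes had one, and 0.0127 for Plcb3. Without that library and without the block, 0 genes had an adjusted p under 0.05 and 1 member an unadjusted p under 0.05 (Plcb1 at −0.936, adjusted p 0.392) where 1421 of all genes had one, and Plcb3 was at 0.00717. Same-numbered libraries deviated from their group means with r of 0.15, −0.535 and −0.00184. So few values cannot show whether the numbers pair the samples. All estimates rest on 7 libraries, and the 95% interval of Plcg1 runs from −1.63 to 1.00 on the log2 scale.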
